A study of Mus musculus with 18 samples.

Results

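The genes described here are the nuclear genes for the subunits of the oxidative phosphorylation complexes, measured by bulk RNA sequencing in microglia, the resident macrophages of the brain, from mice labelled as Chd8 KO or WT. Members were taken by symbol from the protein-coding genes of the annotation, as the Nduf genes of complex I (families a, b, c, s and v), the 4 Sdh genes of complex II, the Uqcr genes and Cyc1 of complex III, the Cox4 to Cox8 genes of complex IV and the Atp5 genes of complex V. Assembly factors were left out. The rule found 86 genes of the 55414 listed: 36 of complex I, 4 of complex II, 9 of complex III, 19 of complex IV and 18 of complex V. Ndufa4, first described as a complex I protein and now assigned to cytochrome c oxidase, was counted with complex IV. Its relative Ndufa4l2, with 3 UMIs and not tested, was left in the count of complex I. The count of 18 for complex V includes a second identifier of Atp5o. Of the 86 members, 79 passed the filter on low counts and were tested.

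Oxidative phosphorylation moves electrons from NADH and succinate through complexes I and II to ubiquinone, then through complex III and cytochrome c to complex IV, which reduces oxygen. Complexes I, III and IV pump protons across the inner mitochondrial membrane, and complex V, the ATP synthase, uses that gradient to make ATP. Every complex except II also holds subunits encoded by mitochondrial DNA, so the nuclear genes supply only a share of each of these complexes, and many of the nuclear products are small supernumerary subunits around a conserved catalytic core. Chd8 encodes a chromatin remodelling ATPase whose human counterpart is a known autism risk gene.

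The 18 libraries fell into 4 groups by sex and genotype, with 8 from females (4 KO, 4 WT) and 10 from males (5 KO, 5 WT). The labels give the tissue as brain and the cell type as microglia, and they do not say which allele the KO animals carry, whether 1 or both copies were lost, which Cre driver was used if any, how old the mice were or how the cells were sorted. All labels carry the prefix HX, which they do not explain. Nothing in them says that the libraries came from separate animals, so the p-values below measure the spread between these libraries, which may be in part technical.

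Unique molecular identifiers (UMIs), which mark each captured RNA molecule, totalled 435838 to 9149144 per library, and the members held 1.12% to 1.39% of them. Reads per UMI fell into 3 separate ranges: 1.79 to 1.89 in 8 libraries, 2.94 to 3.12 in 6 and 5.52 to 7.26 in 4. Of the 4 libraries with the most reads per UMI, 3 were female WT, 1 was female KO and 0 were male, while 7 of the 8 with the fewest were male. Microglial markers were present in every library: Tmem119 ran from 3147 to 6242 CPM, a gene's count relative to the total of its library, and P2ry12 from 828 to 2528. Summed over 10 microglial markers the level moved with the groups, at 30356 to 35449 CPM in female KO and 25751 to 29133 in female WT. In males it was 26377 to 30216 in KO and 29897 to 33804 in WT. Of these 10 genes, 2 were called lower in KO in males and 1 in females. Between the WT sexes 3 were higher and 1 lower in males. For Chd8 itself, KO against WT, the ranges were 96.4 to 116 and 135 to 167 CPM in males, and 116 to 139 and 132 to 186 in females. The groups did not overlap in males and overlapped in females. The deleted part of the gene is not given in the sources used here, and a 3′ tag outside it would not report the deletion. Markers of other cells moved with the groups as well. In male KO against male WT the summed markers of neurons were 69.2 to 331 against 14.1 to 38.1 CPM, those of astrocytes 275 to 585 against 139 to 199, those of the oligodendrocyte lineage 243 to 832 against 101 to 155, and those of border-associated macrophages 157 to 251 against 30.0 to 57.8. Of these lists 5 of 5, 4 of 5, 3 of 5 and 7 of 8 tested genes were called higher. In females the summed monocyte markers were 126 to 197 in KO and 208 to 709 in WT, and the neutrophil markers 986 to 5247 and 2151 to 15618, with 4 of 6 and 5 of 8 genes called lower. Their part in the results below was not tested. Male monocyte markers did not exceed 105 CPM and male neutrophil markers did not exceed 1147. Among the defining markers, Mog was at 0 in female WT and male WT, Gja1 in female WT and male WT, Aqp4 in female KO, Pdgfra in female KO, female WT and male KO, and Vcan in female WT. In bulk RNA, fewer cells of a type and less RNA per cell cannot be told apart.

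Levels are given as TMM-scaled CPM of UMIs, where TMM (trimmed mean of M values) corrects each library's size for its composition. A 3′ tag counts a molecule whatever its length, so these levels were not divided by gene length. Summed over all its members, complex I stood at 5480 ± 96.8 CPM (SD, n = 4) in female WT, 5114 ± 1009 (n = 4) in female KO, 4647 ± 237 (n = 5) in male WT and 4713 ± 378 (n = 5) in male KO. Complex V stood at 3162 ± 153, 3108 ± 392, 2866 ± 77.2 and 2956 ± 169 CPM in the same order of groups, and complex IV at 3217 ± 278, 2650 ± 535, 2322 ± 131 and 2386 ± 258. Complex III stood at 1476 ± 95.4, 1436 ± 219, 1255 ± 38.3 and 1353 ± 75.6 CPM. Complex II, the only complex without a mitochondrially encoded subunit, stood lowest at 495 ± 27.3, 535 ± 37.0, 568 ± 21.4 and 624 ± 32.4 CPM. For complexes I, III, IV and V the female WT mean was the highest of the 4 and the male WT mean the lowest, whereas for complex II the female WT mean was the lowest and the male KO mean the highest. By library total without TMM, the female KO mean was above the female WT mean for complex III (1421 and 1415 CPM) and complex V (3079 and 3028), and on reads for complex III (1530 and 1496). These sums were not tested.

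**Figure D1:**
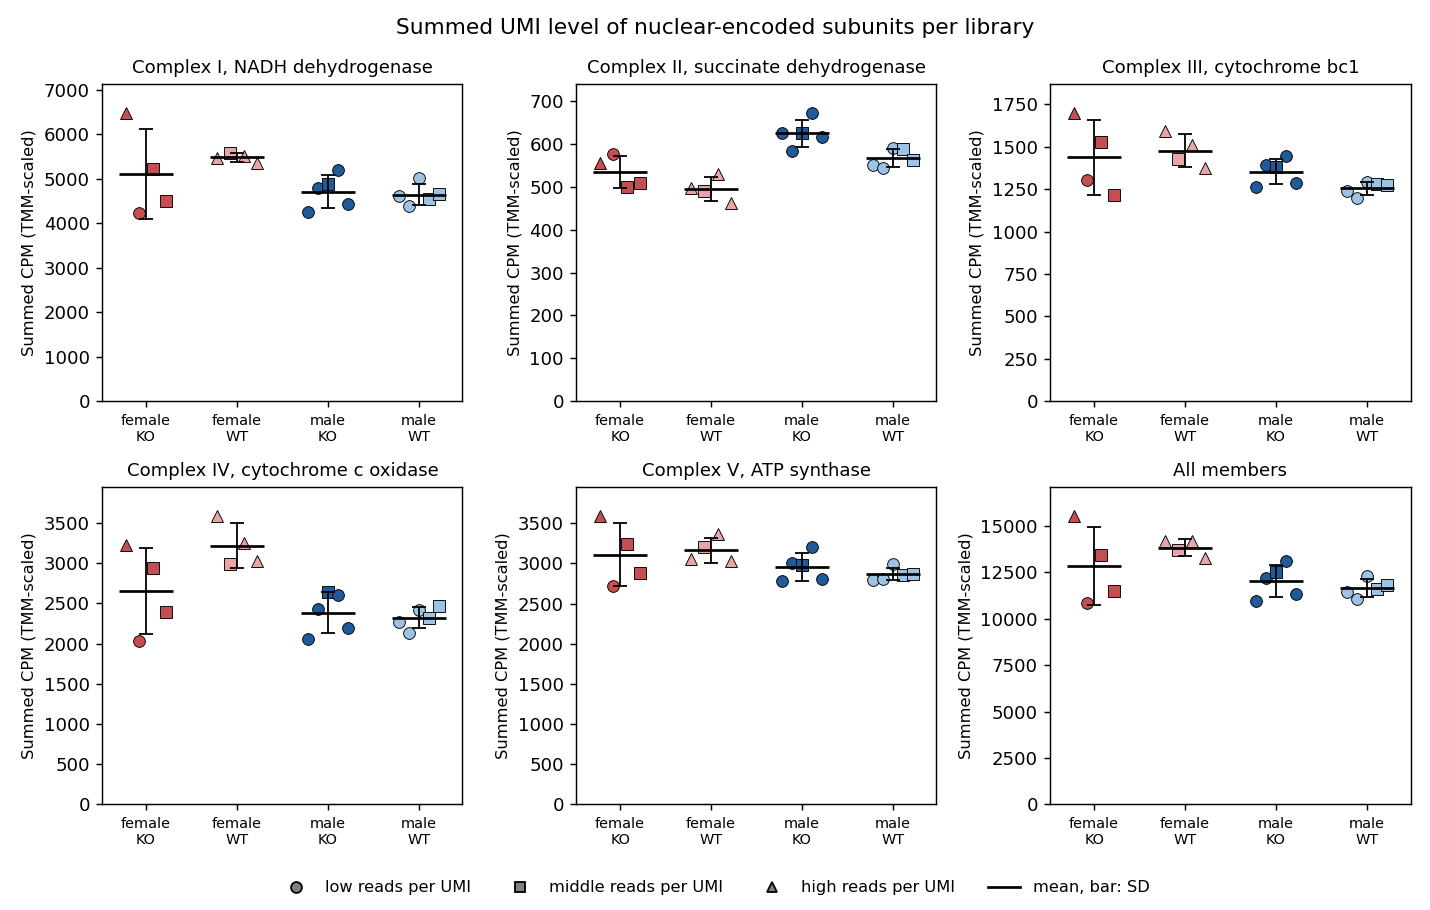
Summed TMM-scaled CPM (vertical axes, from 0) of the members of each complex and of all members, with 1 point per library, horizontal bars for group means and error bars for the SD (n = 4, 4, 5 and 5), and the point shape giving the range of reads per UMI. Complex IV was 3217 ± 278 CPM in female WT and 2322 ± 131 in male WT, and complex II ran the other way, at 495 ± 27.3 and 568 ± 21.4.

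The highest means over the 18 libraries were those of Ndufa13 (352 CPM) and Ndufa6 (255) in complex I, Sdhb (292) and Sdha (90.9) in complex II, Uqcrq (245) and Uqcrh (230) in complex III, Cox6a1 (535) and Cox4i1 (524) in complex IV, and Atp5b (409) and Atp5d (342) in complex V. Atp5b and Atp5d encode the beta and delta subunits of the F1 part of the synthase, and Cox4i1 the largest nuclear subunit of cytochrome c oxidase. At the low end of the tested genes stood Uqcrb, Atp5g2 and Cox6b2, at 7.93, 7.02 and 6.39 CPM.

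Where a subunit has isoforms from separate genes, the widely expressed form was the more abundant one. Cox4i1 averaged 524 CPM over the 18 libraries and Cox4i2, known from lung, 0.195. Cox6a1 averaged 535 CPM and Cox6a2, the heart and muscle form, 9.73. Cox7a2 averaged 86.4 CPM and Cox7a1, also a heart and muscle form, 2.35. Cox8a averaged 184 CPM and Cox8b 0.480, while Cox6b1 averaged 258 and Cox6b2, known from testis, 6.39. Ndufa4 averaged 38.6 CPM and Ndufa4l2, a hypoxia-inducible relative, 0.0522. The 3 genes for the same c subunit of the ATP synthase rotor were all present, Atp5g3 at 253 CPM, Atp5g1 at 128 and Atp5g2 at 7.02. Cox7b2 and Cox8c had 0 UMIs in the 18 libraries together, a count that allows up to 3. These 2 genes, Cox4i2, Cox7a1, Cox8b, Ndufa4l2 and the second Atp5o identifier, with 1 UMI, were the 7 members that were not tested.

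In males, 1 of the 79 tested members changed between KO and WT: Ndufb7 fell, 0 members rose, and the median log2 fold change of the members was 0.06, against -0.01 over all tested genes. Among all 10948 tested genes 3.37% rose and 2.87% fell (6.24% in all). In females, 3 members fell and 0 rose, against 1.83% and 0.849% of all tested genes (2.68% in all), and the members' median was -0.14 against 0.01. The 3 were Ndufb7 and Ndufs3 of complex I and Cox8a of complex IV. In the average of both sexes 5 members fell (Ndufb7, Cox8a, Atp5j, Ndufb11 and Ndufs3) and 1 rose (Sdhb), against 5.13% and 4.37% of all tested genes (9.5% in all), with a median of -0.01. That is 6.33% and 1.27% of the members, shares near those of the background. A gene was called where the Benjamini-Hochberg adjusted p of edgeR's quasi-likelihood test, over all 10948 genes, was under 0.05.

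Ndufb7, a supernumerary subunit on the intermembrane-space side of the complex I membrane arm (chr8:83566671-83571626, + strand), was at 96.8, 114, 134, 120 and 103 CPM in the male KO libraries and at 189, 172, 188, 157 and 180 in male WT. In the female KO libraries it was at 196, 107, 146 and 118 CPM, and in female WT at 271, 212, 195 and 274. Every male KO library lay below every male WT library, whereas the highest female KO library, replicate 33, lay just above the lowest female WT library. The log2 fold change was -0.65 ± 0.14 (SE, adjusted p = 0.00458) in males, -0.80 ± 0.16 (adjusted p = 0.0124) in females and -0.72 ± 0.11 (adjusted p = 0.000179) averaged over both, a 1.65-fold fall. In the library range with 2.94 to 3.12 reads per UMI it was lower in KO in both sexes too, at 134 CPM in 1 male KO library against 169 in 2 male WT, and at 132 in 2 female KO against 212 in 1 female WT. The averaged call held in all 26 alternatives run, and the male call in 16 of 17, being lost on reads counted before UMI correction. The female call held in 9 of 16 and was lost, among others, without female KO replicate 16, without female KO replicate 7 or without female WT replicate 30, with adjusted p of 0.0543, 0.0587 and 0.0609.

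Cox8a encodes the widely expressed form of subunit 8, a single membrane helix at the surface of cytochrome c oxidase (chr19:7215153-7217616, - strand). It was at 129, 119, 152 and 130 CPM in female KO and at 240, 214, 246 and 218 in female WT. In male KO it was at 150, 137, 235, 166 and 127 CPM, and in male WT at 208, 200, 178, 207 and 254. The female groups did not overlap, and in males 4 of the 5 KO libraries lay below all WT libraries while replicate 9 lay within their range. The log2 fold change was -0.79 ± 0.16 (adjusted p = 0.0144) in females, -0.37 ± 0.14 (adjusted p = 0.134, not passed) in males and -0.58 ± 0.11 (adjusted p = 0.00138) averaged, and the difference of the effect between sexes did not pass. The averaged call held in all 26 alternatives. Without male KO replicate 9 the male difference also passed, at an adjusted p of 0.00753, and without female KO replicate 16 or 7 the female difference did not (adjusted p = 0.0545 and 0.0534). The female call was lost in 5 of 16 alternatives, among them also on uncorrected reads and with only the groups compared.

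Atp5j encodes coupling factor 6 of the ATP synthase's peripheral stalk (chr16:84827866-84835625, - strand). It was at 63.7, 91.9, 101, 78.9 and 51.7 CPM in male KO and at 108, 108, 138, 122 and 135 in male WT. In female KO it was at 208, 60.9, 130 and 128 CPM, and in female WT at 179, 182, 234 and 180. The male groups did not overlap, and in females only replicate 33 of KO reached the WT libraries. The averaged log2 fold change was -0.68 ± 0.16 (adjusted p = 0.0111). The separate changes, -0.68 ± 0.21 in males (adjusted p = 0.0609) and -0.67 in females, did not pass, and the averaged call was lost in 1 of 26 alternatives, with the range of reads per UMI as a covariate, at an adjusted p of 0.0522. Without male KO replicate 9 the male difference passed (adjusted p = 0.0371). Atp5j overlaps Gabpa by 701 bases on the opposite strand, and Gabpa (chr16:84834925-84863779, + strand) rose in the same average by 0.55 ± 0.14 on the log2 scale. The shared stretch lies at the annotated 5′ ends of both genes, and how many reads fall in it was not measured. The strand setting of the counting is not given in the sources used here, so reads from the shared stretch cannot be told apart.

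Sdhb, the iron-sulfur subunit of succinate dehydrogenase that passes electrons from the flavin of Sdha towards ubiquinone (chr4:140961203-140979193, + strand), was the only member to rise in KO. It was at 326, 325, 325, 366 and 338 CPM in male KO against 308, 274, 290, 254 and 281 in male WT, and at 399, 307, 263 and 269 in female KO against 253, 213, 243 and 216 in female WT. KO libraries lay above the WT libraries of their sex throughout. The averaged log2 fold change was 0.33 ± 0.08 (adjusted p = 0.0136), with 0.26 ± 0.11 in males and 0.40 ± 0.13 in females, neither of which passed alone. The call held in 24 of 26 alternatives and was lost on uncorrected reads and without male KO replicates 6, 9 and 17 together. The other 3 subunits of complex II did not pass in any KO contrast.

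Ndufb11 and Ndufs3 passed only in the average or in females. Ndufb11, an X-linked membrane-arm subunit (chrX:20615326-20617619, - strand), averaged 160 ± 19.1 CPM in female KO and 212 ± 33.1 in female WT, and 170 ± 29.2 in male KO and 202 ± 14.8 in male WT, and fell by 0.34 ± 0.09 on the log2 scale over both (adjusted p = 0.0232). Its call was lost in 6 of 26 alternatives, among them with no filter on low counts and on uncorrected reads. It was also lost without female KO replicate 16, female KO replicate 7, female WT replicate 39 or male KO replicate 36, with adjusted p between 0.0514 and 0.0717. Ndufs3, a core subunit of the matrix arm (chr2:90894634-90904827, - strand), was at 38.6, 31.4, 45.8 and 44.2 CPM in female KO and at 69.4, 55.2, 75.9 and 73.6 in female WT. The female groups did not overlap, while male KO averaged 40.5 ± 5.76 CPM and male WT 40.8 ± 7.07. Its log2 fold change was -0.78 ± 0.18 in females (adjusted p = 0.0224), -0.03 in males and -0.40 ± 0.11 averaged (adjusted p = 0.0259). In the range of 2.94 to 3.12 reads per UMI the female values were 45.0 CPM in KO (2 libraries) and 55.2 in WT (1 library). The averaged call was lost in 10 of 26 alternatives, among them each of the fits without female KO replicate 16, female WT replicate 31, female WT replicate 30, male KO replicate 36, male WT replicate 11 or male WT replicate 14 (adjusted p between 0.0528 and 0.0757). The female call was lost in 7 of 16 alternatives, over which its log2 fold change ran from -0.87 to -0.31. Among them were uncorrected reads, the range of reads per UMI as a covariate and only the groups compared. It was also lost without female KO replicate 16 or female WT replicates 31 or 30 (0.0508 to 0.0921). Ndufs3 and Ndufb11 each overlap a gene on the opposite strand, Kbtbd4 with 1139 UMIs and Rbm10 with 2737, and neither can be told from its partner in the overlap.

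**Figure D2:**
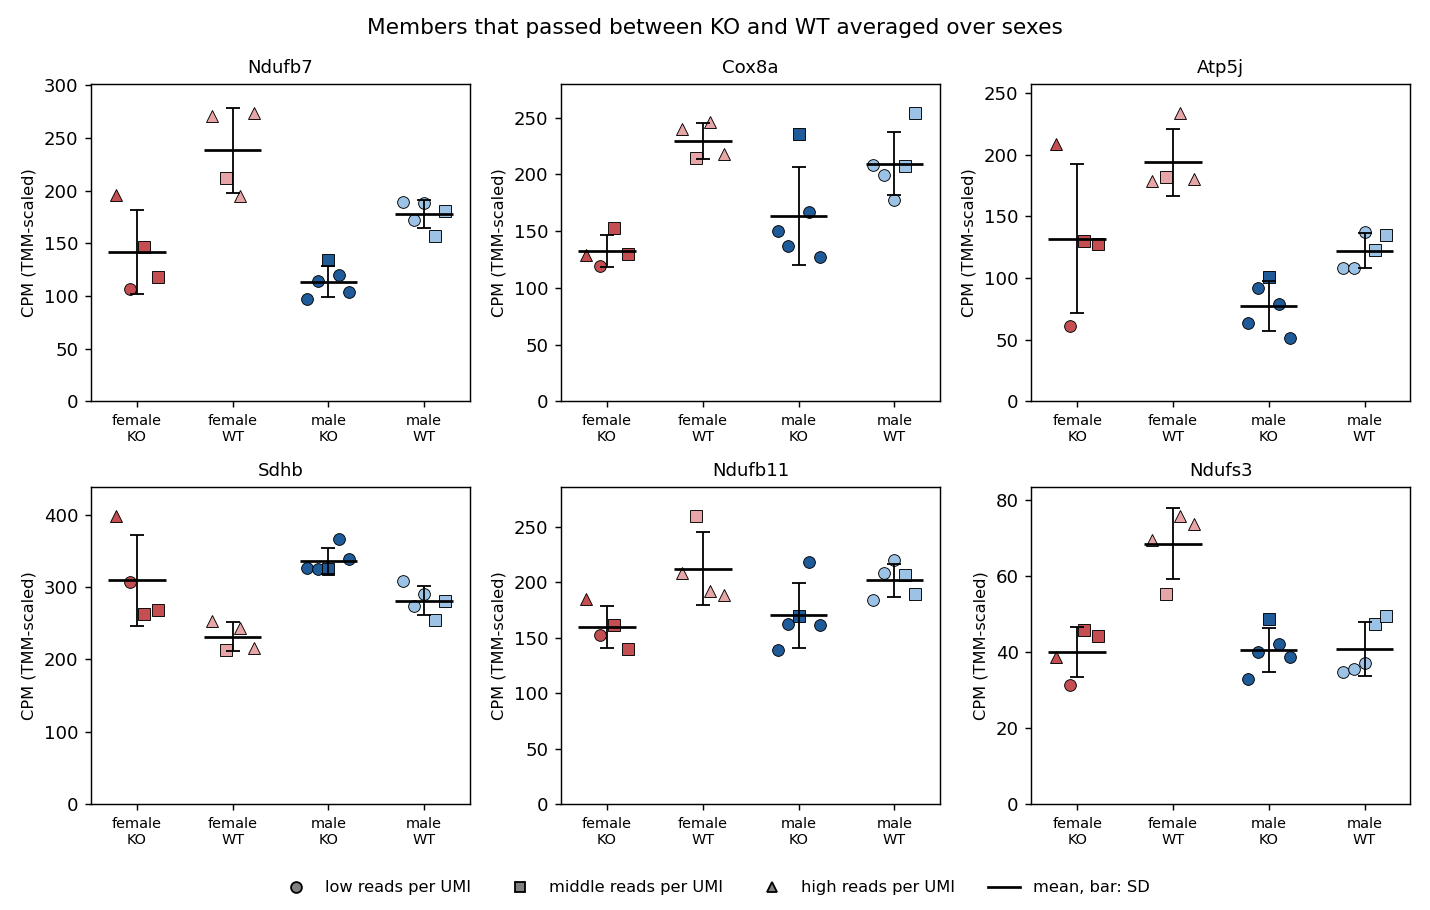
TMM-scaled CPM (vertical axes, from 0) of the 6 members that passed between KO and WT averaged over sexes, with 1 point per library, bars for means, error bars for the SD and point shape for the range of reads per UMI. Ndufb7 was lower in every male KO library than in any male WT library, Cox8a in every female KO library than in any female WT library, and Sdhb was higher in every KO library than in the WT libraries of the same sex.

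The promoters of these 6 genes are shown with the calls above already known, and an ETS-type motif stands in 5 of them. Any part in these changes of GA-binding protein, of which Gabpa is the DNA-binding subunit, was not tested. The window ran from 250 bases before to 50 after the RefSeq start (GRCm38.p6, the assembly of mm10), and 68 of the 86 members had such a window. The search was for the letters CCGGAAG on either strand, an ETS-type motif that GA-binding protein and other ETS factors share. Each stretch is written along the gene's strand with the motif in capitals, and CTTCCGG is the same motif on the other strand.
Ndufb7 (chr8:83566730-83566752, + strand): tagatgacCCGGAAGacactgaa
Cox8a (chr19:7217607-7217629, - strand): ccgaaataCTTCCGGctcgggcg
Cox8a (chr19:7217570-7217592, - strand): cgccggaaCTTCCGGctggttcg
Atp5j (chr16:84835023-84835045, - strand): tgagggacCCGGAAGcacttacc
Ndufs3 (chr2:90904734-90904756, - strand): gcgtccgcCCGGAAGaagagtca
Ndufs3 (chr2:90904706-90904728, - strand): catttccaCTTCCGGtccgtgcc
Sdhb (chr4:140961269-140961291, + strand): cggagaaaCCGGAAGcggccttc
The Ndufb11 window did not hold these letters. The motif was in 16 of the 68 members (23.5%), in 12.9% of all protein-coding genes with a window and in 22.2% of the tested ones. It stood in 4 of the 5 members that fell and in the 1 that rose, and over all genes it was in 16.3% of those that fell and 23.3% of those that rose in the averaged contrast. A match is a description of the letters and not a bound site.

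Further letters known from promoters of respiratory genes were searched in the same windows. The motif of NRF1, searched on either strand as GCGC, any base, then TGCGC, was in 17 of the 68 members (25%), in 7.17% of all protein-coding genes and in 12.5% of the tested ones. The YY1 motif AAGATGGC was in 10 (14.7%), in 3.57% and in 5.93%. Atp5j held it as well, further upstream than the stretch shown above, at chr16:84835049-84835072 (- strand).
Atp5j, YY1 motif in capitals: gtgtaggaAAGATGGCggagtctt
None of the 6 members that changed in the averaged KO contrast held the NRF1 motif in this window.

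**Figure D3:**
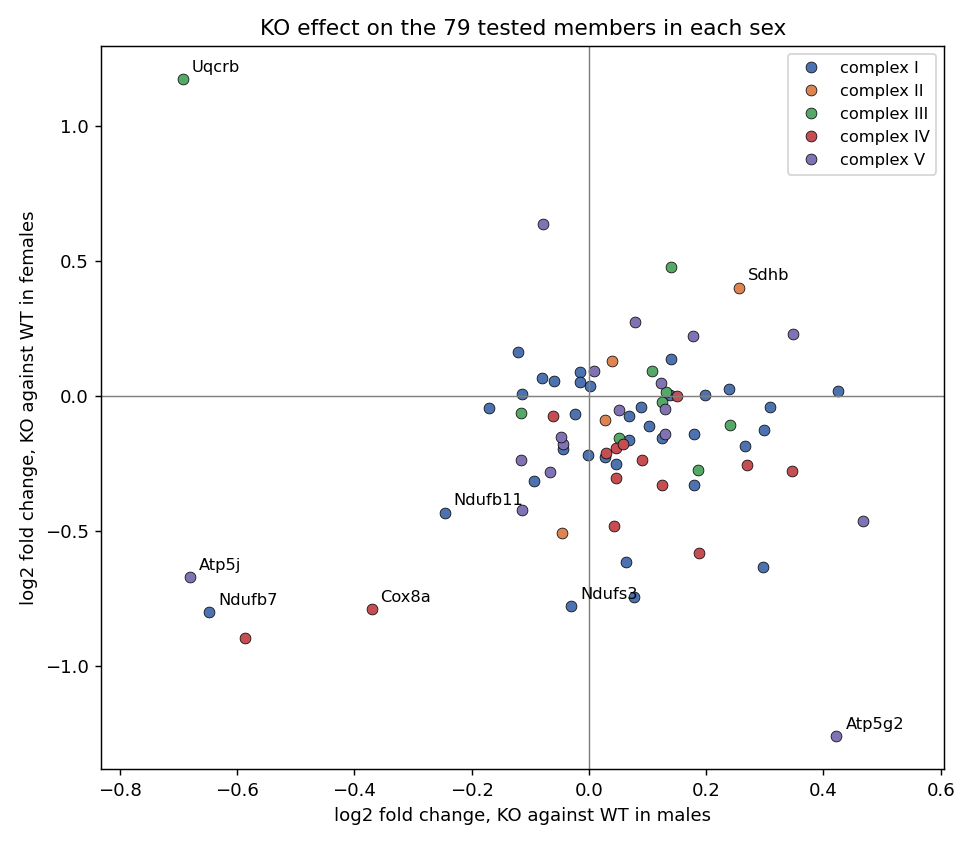
Log2 fold change between KO and WT of the 79 tested members in males (horizontal axis) and females (vertical axis), with 1 point per gene coloured by complex and lines at 0. Ndufb7, Atp5j and Cox8a lie below 0 on both axes and Sdhb above, the 14 points of complex IV all lie below 0 in females, and Uqcrb and Atp5g2 lie far out on few UMIs.

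By complex, the KO differences in females had a lower sign in 14 of 14 tested subunits of complex IV, with a median of -0.27, of which Cox8a alone passed. Complex I had a lower sign in 23 of 35, complex V in 11 of 17, complex III in 5 of 9 and complex II in 2 of 4. Over all tested genes 5346 of 10948 had a lower sign. By protein length, the sign was lower in 19 of 21 members under 100 residues and in 140 of 215 other genes of that size. From 100 to 199 residues it was lower in 29 of 36 members and 647 of 1169 other genes. In females, 3 WT libraries and 1 KO library lay in the highest range of reads per UMI. With the ranges as a covariate the median over all members in females was -0.04, where the main fit gave -0.14. That fit called 2 members (2.53%), 1 higher and 1 lower, against 0.913% of all genes. The part of the ranges in the signs by complex was not tested. In males the sign was lower in 3 of 14 subunits of complex IV, with a median of 0.05. The summed level of complex IV changed by -17.6% from female WT to female KO, where the highest KO library lay above 2 of the 4 WT libraries, and by 2.76% from male WT to male KO. Among the subunits with values that did not pass in females, Cox7c was at 186 ± 41.4 CPM in KO and 271 ± 63.4 in WT (adjusted p = 0.0816), and it passed without female KO replicate 33 or without female WT replicate 39 (0.0168 and 0.0205). Uqcrb, a subunit of complex III, stood far from the other members at 1.18 in females and -0.69 in males on the log2 scale, on 344 UMIs over the 18 libraries, and did not pass in either sex. Atp5g2, on 351 UMIs, was at -1.26 in females and did not pass.

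The difference of the KO effect between females and males passed for 0 of the 79 members, against 0.0457% higher and 0.192% lower over all tested genes (0.237% in all). With edgeR, 10 of the 79 members had an unadjusted p under 0.05, against 959 of the 10948 tested genes. DESeq2 called 0 members, against 0.634% of all genes. The members of lowest p were Cox7c at -0.77 ± 0.23, Ndufs3 at -0.75 ± 0.23, Ndufc1 at -0.93 ± 0.28 and Ndufa3 at -0.51 ± 0.17, with adjusted p of 0.250, 0.252, 0.260 and 0.313. All 4 values are negative, that is, the KO level relative to WT was lower in females. The median over the members was -0.19, against 0.01 over all tested genes. All 14 of 14 subunits of complex IV were negative, against 5351 of the 10948 tested genes. With the ranges of reads per UMI as a covariate the members' median was -0.14, against -0.02 over all tested genes.

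Between the sexes the differences were more numerous. In WT, 24 of the 79 members were lower in males and 1 was higher, against 10.3% and 6.94% of all tested genes (17.3% in all), so that 30.4% of the members were lower. Their median was -0.31 on the log2 scale, against -0.01 over all tested genes. By complex, 8 of 14 subunits of complex IV were lower, 7 of 35 of complex I, 3 of 9 of complex III, 6 of 17 of complex V and 0 of 4 of complex II. In KO, 5 members were lower in males and 1 was higher, against 4.27% and 2.83% of all tested genes (7.1% in all), with a median of -0.09 against -0.02. Those 5 (Ndufa5, Cox7a2, Cox7b, Ndufa4 and Atp5k) were all among the 24. The WT contrast and the female KO contrast share the female WT libraries.

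The sex contrast moved with the range of reads per UMI, since no male library lay in the highest range. With the 3 ranges as a covariate, 2 members (2.53%) were lower in WT males and 0 higher, against 2.48% of all genes called in either direction. Without the 4 libraries of the highest range, which left a single female WT library, 3 members (3.75%) were lower, against 2.45% of all genes called. In KO the 6 calls became 2 with the covariate (2.53%, against 2.98% of all genes) and 5 without those libraries (6.25%, against 6.85%). These shares lie near those of all genes. Sex and the highest range cannot be told apart in the WT libraries beyond the 1 female and 2 male libraries that share the middle range. Monocyte and neutrophil markers, lower in males of the same genotype (6 of 6 and 8 of 8 genes called in WT, 4 of 6 and 4 of 8 in KO), moved with the sex contrast as well. Those of border-associated macrophages, at 136 to 299 CPM in female WT and 30.0 to 57.8 in male WT, did so in WT (7 of 8 genes). Their part in it was not tested.

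Cox7b and Ndufa3 kept their WT sex call in all 17 alternatives. Cox7b, an X-linked single-helix subunit of cytochrome c oxidase (chrX:106015700-106022450, + strand), was at 193, 120, 161 and 127 CPM in female WT and at 49.1, 47.8, 55.1, 64.3 and 53.2 in male WT. In female KO it was at 95.2, 78.8, 144 and 144 CPM, and in male KO at 48.5, 67.8, 55.8, 76.7 and 47.4. No male library of either genotype reached the lowest female library of the same genotype. The log2 fold change, male against female, was -1.45 ± 0.19 in WT (adjusted p = 3.5e-05) and -0.997 ± 0.19 in KO (adjusted p = 0.00307), and the KO call held in all 18 alternatives. In the middle range of reads per UMI it was at 120 CPM in 1 female WT library and 58.8 in 2 male WT, and at 144 in 2 female KO and 55.8 in 1 male KO. Ndufa3, a small membrane-arm subunit of complex I, averaged 266 ± 40.0 CPM in female WT and 165 ± 14.7 in male WT, a log2 fold change of -0.68 ± 0.12 (adjusted p = 0.000504), and at the middle range 275 and 170. In KO it did not pass. The other X-linked members, Ndufa1 and Ndufb11, were not called between the sexes.

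Most other subunits of complex IV that were lower in males are small. Cox7a2, the widely expressed form of subunit 7a, was at 94.0, 76.8, 188 and 125 CPM in female WT against 62.9, 57.7, 49.1, 78.5 and 54.5 in male WT, and at 136, 95.1, 137 and 113 in female KO against 74.5, 45.9, 55.3, 42.4 and 70.1 in male KO. The KO groups did not overlap, and in WT a single male library, replicate 11, lay above the lowest female one. The log2 fold change was -1.03 ± 0.22 in WT (adjusted p = 0.00285) and -1.02 ± 0.22 in KO (adjusted p = 0.00743). Ndufa4 was lower in males by a log2 fold change of -1.198 ± 0.29 in WT and -1.05 ± 0.27 in KO, the latter lost without female KO replicate 1, female KO replicate 7 or male KO replicate 40 (adjusted p between 0.0611 and 0.161). Cox6c, Cox7c, Cox7a2l, Cox4i1 and Cox6b1 were lower in WT males by -1.03, -0.90, -0.62, -0.52 and -0.50. Cox7a2l, a homologue of the 7a subunit linked to supercomplexes, turned to 0.11 with the ranges of reads per UMI as a covariate. In WT, Cox7a2, Ndufa4, Cox6c, Cox7c, Cox7a2l and Cox4i1 did not pass with that covariate, nor without the 4 libraries of the highest range, and Cox6b1 did not pass with the covariate. Without female WT replicate 34 the calls of Cox7a2l, Cox4i1 and Cox6b1 were lost (adjusted p = 0.106, 0.0730 and 0.0611). Cox7a2l was also lost without female WT replicate 31 or 30 or male WT replicate 13, 37 or 10 (0.0538 or more), Cox4i1 without male WT replicate 37 (0.0526), and Cox6b1 without female WT replicate 39 or male WT replicate 11 (0.109 and 0.0566).

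In complex I the largest sex difference was that of Ndufa5, a small subunit of the matrix arm (chr6:24518666-24528013, - strand). It was at 71.7, 66.4, 91.0 and 79.7 CPM in female WT and at 27.9, 19.8, 20.0, 37.4 and 26.8 in male WT. In female KO it was at 193, 47.1, 65.9 and 66.0 CPM, and in male KO at 31.8, 47.0, 20.4, 42.1 and 36.6. The groups did not overlap in either genotype, although the lowest female KO library and the highest male KO library nearly met. The log2 fold change was -1.55 ± 0.30 in WT (adjusted p = 0.00144) and -1.14 ± 0.29 in KO (adjusted p = 0.0219), and neither passed with the covariate. The KO call was also lost without female KO replicate 7 (adjusted p = 0.0515). Ndufc1, Ndufb4, Ndufs3, Ndufb3 and Ndufb8 were lower in WT males by -1.07, -0.84, -0.74, -0.63 and -0.50, and Ndufs3 was the only core subunit of complex I among the 7. Ndufb8 was lost without female WT replicate 34, 31 or 30 or male WT replicate 13 or 37 (0.0507 to 0.102). In WT, Ndufc1, Ndufb4, Ndufs3, Ndufb3 and Ndufb8 did not pass with the ranges of reads per UMI as a covariate.

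In complex V the lower members lie mainly in the membrane and stalk parts. Atp5l (subunit g) and Atp5k (subunit e), which hold the dimer of the synthase together, were lower in WT males by -1.73 ± 0.28 (adjusted p = 0.000222) and -0.94 ± 0.26 (adjusted p = 0.0139). Atp5l was at 42.5, 16.8, 26.4 and 27.9 CPM in female WT and at 7.40, 6.02, 6.51, 9.27 and 10.5 in male WT, with no overlap. Atp5j2, Atp5j and Atp5h (subunits f, F6 and d) were lower by -0.66, -0.68 and -0.52, and Atp5e, the small epsilon subunit of the F1 stalk, by -0.53. The call of Atp5j was lost without any 1 of the 9 WT libraries (adjusted p between 0.0529 and 0.137), that of Atp5e without female WT replicate 34 or 30 or male WT replicate 13, 37, 11 or 14 (0.0508 to 0.0863), and that of Atp5k without female WT replicate 30 (0.0637). Atp5f1, subunit b of the peripheral stalk, was the member that was higher: it was at 187, 226, 207, 203 and 208 CPM in male WT and at 103, 169, 169 and 146 in female WT, with no overlap and a log2 fold change of 0.46 ± 0.14 (adjusted p = 0.0245). That call was lost without female WT replicate 34, female WT replicate 30 or male WT replicate 37 (adjusted p between 0.0539 and 0.0818). With the ranges of reads per UMI as a covariate, the WT calls of Atp5l, Atp5k, Atp5j2, Atp5j, Atp5h, Atp5e and Atp5f1 did not pass. Atp5k was lower in KO males by -0.83 ± 0.25 (adjusted p = 0.0497), a call lost in 14 of 18 alternatives, among them each fit without 1 of the KO libraries other than female KO replicate 16 (adjusted p between 0.0583 and 0.185, the highest without female KO replicate 33). Female KO replicate 33 stood at 471 CPM for it and the other 3 female KO libraries at 123 to 191.

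In complex III, 3 small subunits were lower in WT males and 1 subunit of the catalytic core was higher in KO males. Uqcr11, Uqcrh and Uqcrq, of which Uqcrh is the hinge protein that contacts cytochrome c1, were lower in WT males by -0.57 ± 0.12, -0.47 ± 0.13 and -0.42 ± 0.14. Without female WT replicate 34 the calls of Uqcrh and Uqcrq were lost (adjusted p = 0.0567 and 0.161). Uqcrq was also lost without female WT replicate 31 or male WT replicate 13, 37, 11 or 14 (0.0710 to 0.0789). With the ranges of reads per UMI as a covariate, Uqcr11, Uqcrh and Uqcrq did not pass in WT. Cyc1, cytochrome c1 itself, was at 213, 208, 229, 186 and 233 CPM in male KO and at 149, 184, 169 and 127 in female KO. The groups did not overlap, and the log2 fold change of 0.44 ± 0.13 (adjusted p = 0.0387) made it the 1 member that was higher in KO males. It did not pass in WT, where the log2 fold change was 0.32, and its KO call was lost in 12 of 18 alternatives, among them each of the fits without female KO replicate 33, 1 or 7 or without male KO replicate 36, 6, 9 or 40 (adjusted p between 0.0580 and 0.176).

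**Figure D4:**
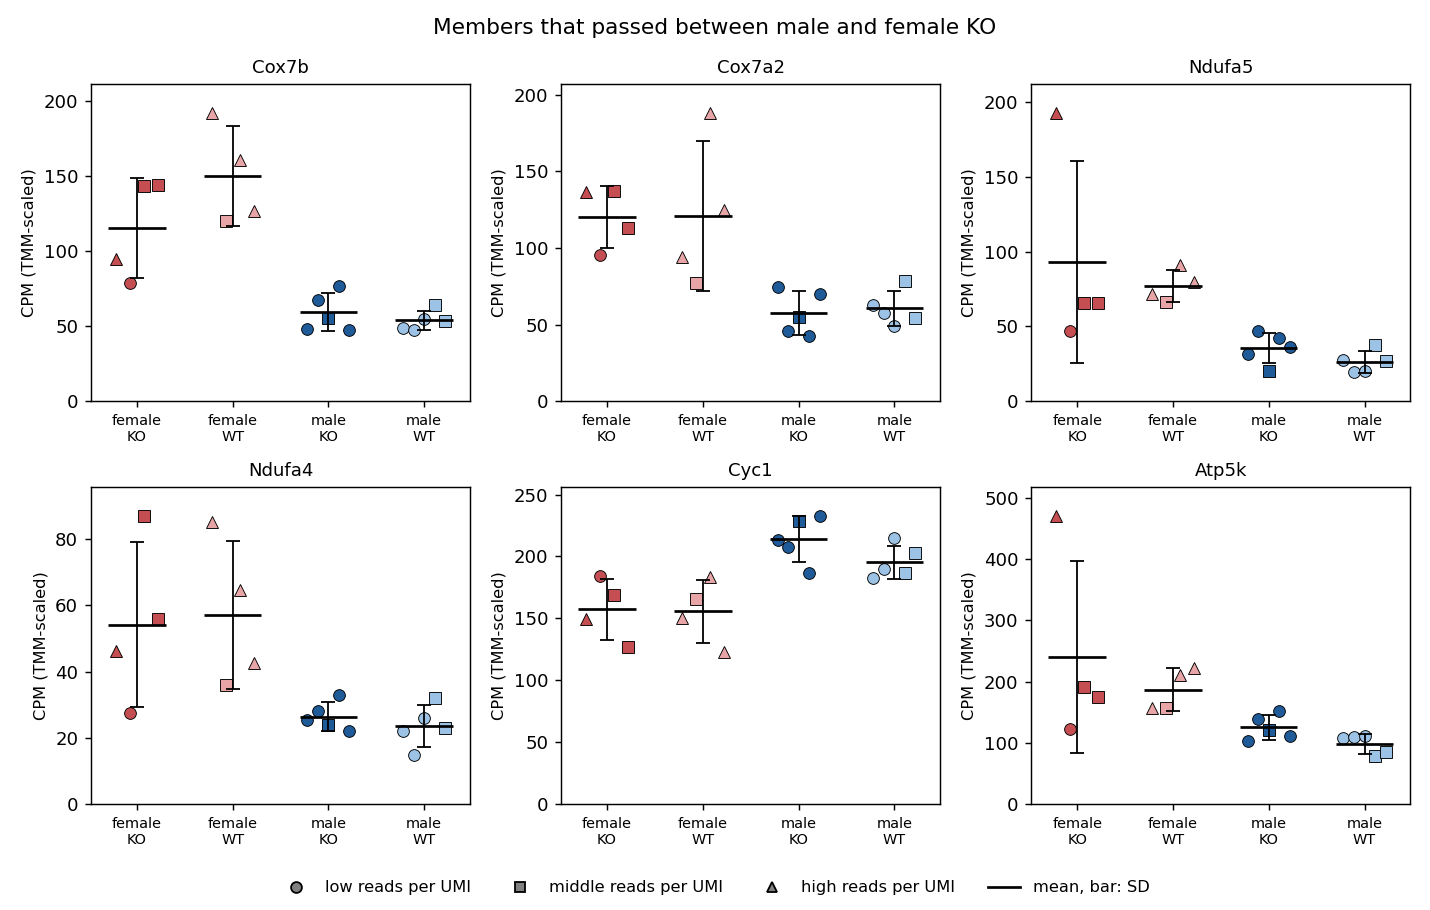
TMM-scaled CPM (vertical axes, from 0) of the 6 members that passed between male and female KO, with 1 point per library, bars for means, error bars for the SD and point shape for the range of reads per UMI. Cox7b was below 77 CPM in all 10 male libraries and above 78 in all 8 female ones, while for Atp5k and Ndufa5 female KO replicate 33 stands far above the rest of its group.

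The members that were lower in WT males were mostly those that encode short proteins. Of the 21 tested members with a protein under 100 residues, 14 were lower and 0 higher (66.7% lower), where 28.4% of the 215 other tested genes of that size were lower. Of the 36 with at least 100 and under 200 residues, 9 were lower and 0 higher (25%, against 17.8% of other genes), and of the 22 with 200 or more, 1 was lower and 1 higher (4.55% each, against 7.15% and 7.61% of other genes). By role, 2 of the 18 core, catalytic or F1 subunits were lower, with a median of 0.12, and 22 of the 60 other subunits were lower and 1 higher, with a median of -0.42. Role and size go together among these genes, since all core, catalytic or F1 subunits except Atp5e and Atp5d have 200 or more residues. The rank correlation (Spearman) of protein length with the log2 fold change was 0.63 over the 79 members and -0.02 over 9947 other genes. It was 0.44 over the members between male and female KO, 0.43 for KO against WT in females and -0.19 for KO against WT in males. The points of each correlation share the same libraries, and the WT sex and female KO contrasts share female WT. Library range moved with this pattern as with the calls themselves, and its part was not tested.

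**Figure D5:**
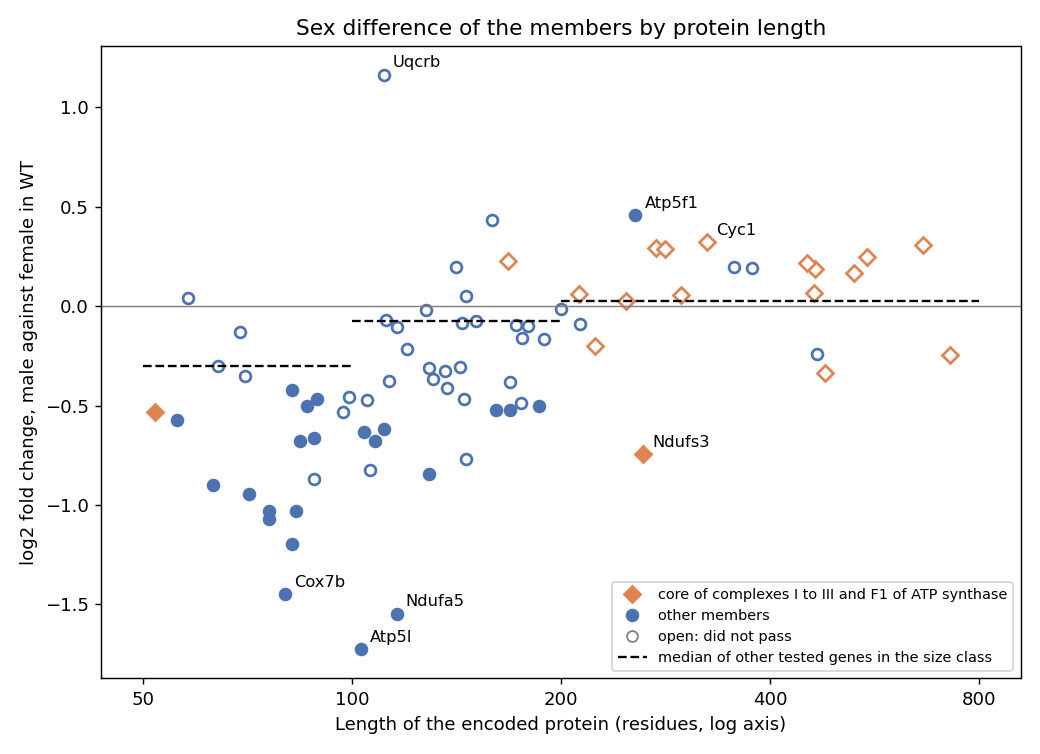
Log2 fold change, male against female in WT (vertical axis), of the 79 tested members by length of the encoded protein (horizontal log axis), with diamonds for core, catalytic and F1 subunits, circles for others, filled symbols for genes that passed, and dashed lines at the median of other tested genes in each size class. Of the 21 members under 100 residues 14 passed as lower, and of the 22 with 200 or more only Ndufs3 passed as lower and Atp5f1 as higher.

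Of the 24 members lower in WT males, Ndufa5, Ndufb4, Atp5h and Atp5k carry the NRF1 motif in the promoter window, which 25% of the 68 members with a window hold. The ETS-type motif stands in Atp5e, Atp5h, Atp5j, Atp5k, Atp5l, Cox6b1, Ndufs3, Uqcr11 and Uqcrh. The YY1 motif stands in Atp5j, Atp5j2, Ndufa3, Ndufb8 and Ndufc1. Of the 68 members with a window, 23.5% hold the ETS-type motif and 14.7% the YY1 motif. Any part of these motifs in the sex difference was not tested. Ndufa5 and Atp5k are shown with the NRF1 motif in capitals, since they are the largest sex difference of complex I and a dimer subunit of complex V.
Ndufa5 (chr6:24527699-24527724, - strand): tgtgagctGCGCAGGCGCaaatctac
Atp5k (chr5:108434432-108434457, - strand): tcactgcgGCGCATGCGCctttctgg
Over all genes the NRF1 motif was in 10.3% of those lower and 12.1% of those higher in WT males, against 12.5% of tested genes. The ETS-type motif was in 19.2% and 20.8%, against 22.2%, and the YY1 motif in 5.83% and 4.82%, against 5.93%.

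The neighbouring genes of the pathway were described from lists. Over all tested genes 10.3% were lower and 6.94% higher in WT males than in WT females. Between male and female KO the shares were 4.27% and 2.83%. Averaged over sexes 5.13% fell and 4.37% rose in KO, and in males 2.87% and 3.37%. The sex calls of these lists are from the main fit, and their dependence on the range of reads per UMI was not examined. Of the 13 mitochondrially encoded subunits 6 could be tested, and 5 were lower in WT males (mt-Cytb by -1.59 ± 0.35, mt-Co1 by -2.95 ± 0.72, and mt-Nd4, mt-Nd1 and mt-Nd5), mt-Co1 also in KO males (-2.51 ± 0.70). None of the 6 passed in a KO contrast. Of 48 assembly factors 42 were tested: Tmem126b, needed to assemble the membrane arm of complex I, fell in KO by 0.88 ± 0.19 in males and 0.86 ± 0.16 averaged, and Uqcc2, which serves complex III, fell by 0.40 ± 0.10 averaged. In WT males Pet100, Cox20 and Uqcc2 were lower, 3 of 42 where 10.3% of all tested genes were lower. Of 20 electron carriers and neighbours 19 were tested: Slc25a4, the ADP/ATP carrier, fell in the averaged KO contrast by 0.31, and in WT males Cycs (cytochrome c, -1.54) and Ucp2 (-0.67) were lower and Etfa (0.71) and Slc25a4 (0.40) higher.

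All 21 genes of the citric acid cycle and pyruvate dehydrogenase were tested. Cs, citrate synthase, rose in the averaged KO contrast by 0.36 ± 0.09, and Idh3b (0.47) and Sucla2 (0.76) were higher in WT males, Sucla2 also in KO males (0.74). Of 19 regulators 18 were tested: Tfb1m, a methyltransferase of mitochondrial ribosomal RNA, rose in KO males by 0.71 ± 0.19, and Gabpa by 0.59 ± 0.18. In WT males Gabpb1 was higher (1.22) and Tfb1m (-0.79) and Nrf1 (-0.40) lower, and Gabpb1 was higher in KO males too (0.90). Of 8 antioxidant genes Gpx1 (-0.75) and Gpx4 (-0.57) were lower in WT males and 0 passed in a KO contrast.

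Counting limits bear on some members. In 10 of the 86, the last 100 bases of the transcript had a near-identical match (at least 95% over 80 bases) in another annotated gene, among them Atp5g1, Atp5g2, Atp5j2, Cox6a1 and Cox7c, so their counts are uncertain where the authors' counting split or dropped such reads. In 18 members the gene overlaps another with over 200 UMIs.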

How the data were processed

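RNA from 18 mouse microglia samples was sequenced by bulk MARS-seq, which tags polyadenylated 3′ ends, per the labels' protocols. The authors deposited whole-number counts per gene, before and after UMI correction. The submitters' processing notes name cutadapt, STAR, HTSeq and mm10, without versions. Annotation release, strand setting and the way UMIs were corrected: not given in the sources used here. Of the library columns, 16 match no sample used here and were left out. GENCODE M21 (GRCm38) gave symbols for 52081 of 55414 identifiers, gene positions and protein lengths. The length is that of the longest coding sequence tagged as principal, or of the longest coding sequence where no tag was given.

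UMI-corrected counts were filtered with filterByExpr by group and scaled by TMM, and edgeR's quasi-likelihood test took all 18 libraries in one fit, a mean for each of the 4 groups, in edgeR 4.0.16 (R 4.3.3), with Benjamini-Hochberg adjustment over 10948 genes and a common biological coefficient of variation of 17.8%. Standard errors are the fold change divided by the root of F. Totals of 435838 to 9149144 UMIs set the precision, and limits on counts of 0 cover counting error only. The fit was tested on simulated data: for KO against WT in males, 86.7% of 98 genes changed 2-fold and 100% of 99 changed 4-fold were recovered among 10709. Of the genes called there, 5.15% had not been changed. The simulation gave all genes the same variation of 17.8% and held no ranges of reads per UMI. Only that male contrast was scored, so recovery in females, with shallower libraries, was not measured. DESeq2 1.42.0 was an alternative.

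Members and lists were chosen with earlier results of these data known, and so were the subunit roles and size classes, which were set after values were seen. Named members are those called in any contrast, the 2 highest of each complex, isoform pairs and the 4 of lowest p where under 4 were called. Uqcrb was named after its values were seen, as were the low tested genes. Promoter windows came from RefSeq (GRCm38.p6) for 68 members.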

Additional observations from a re-analysis of the deposited data

Results flagged for a closer look

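In 10 of 184 groups checked, the highest or lowest library stood apart from the rest of its group by more than the 95% limit of Dixon's test allows, and chance flags about 1 group in 20. Female KO replicate 33, the shallowest library, was high for Ndufa5 (193 CPM, next 66.0) and Cox6b2 (18.01, next 4.21). Male WT replicate 10 was high for Ndufa6 (304 CPM, next 220) and Uqcrq (237, next 204) and low for Atp5h (190.2, next 236). Male KO replicate 17 was high for Atp5h (239 CPM, next 213), and male KO replicate 36 low for Cox7c (134, next 168). Female WT replicate 31 was high for Atp5j (234 CPM, next 182), female WT replicate 34 for Ndufb4 (82.8, next 64.6), and male WT replicate 13 for Atp5g2 (13.1, next 4.78).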

How the results depend on the processing

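The alternatives changed scaling, test, filter, UMI correction, the groups fitted, a covariate and single libraries, and the fit without the 4 libraries of the highest reads-per-UMI range was chosen after seeing the data. It left female WT with 1 library, assumed to vary like the other groups. Counts of members called moved by over 1.5 times as follows. For KO against WT in males the main count of 1 became 2 with no filter, 0 on reads without UMI correction, 2 with the range covariate, 4 with only the groups compared and 2 without male KO replicates 6, 9 and 17. For KO against WT in females the count of 3 became 0 on reads, 0 with only the groups compared, 5 without the 2 shallowest libraries and 0 without the 4 libraries of the highest range. The averaged count of 6 became 3 on reads, where the share of all genes called went from 9.5% to 3.96%. For male against female in WT, 25 became 15 on reads, 2 with the covariate and 3 without the 4 libraries, and in KO 6 became 2 with the covariate, 2 with only the groups compared and 1 without male KO replicates 6, 9 and 17. Calls over all genes moved too: in females 1.12% on reads, 0% with only the groups compared, 4.17% without the 2 shallowest and 0.871% without the 4 libraries, and in males 1.83% on reads and 11.3% with only the groups compared. In males the share was 3.91% with no filter, 7% with the covariate and 1.68% without male KO replicates 6, 9 and 17. Between the WT sexes it went from 17.3% to 9.8% on reads and 2.48% with the covariate. Between the KO sexes 7.1% became 2.98% with the covariate, 2.25% with only the groups compared and 0.894% without those male KO replicates. Leaving out 1 library at a time gave 1 to 3 calls in males (6.09% of all genes at 3). In females it gave 0 (without female KO replicate 16, 0.982% of all genes) to 9 (without female KO replicate 33, 6.09%). The averaged count ran from 4 (without female KO replicate 16, 7.4%) to 7 (without female KO replicate 33, 14.2%), and the difference between sexes stayed at 0. For the WT sexes it was 17 (without female WT replicate 34, 12.4%) to 28 (without female WT replicate 39, 18.6%). For the KO sexes it was 2 (without female KO replicate 7, 1.85%) to 19 (without female KO replicate 16, 15.9%). The sum of complex I in female WT became 5247 CPM by library total alone, and on reads complex II in male WT became 533 and complex III in male WT 1297. Cox7a2l reversed between the WT sexes, to 0.11 with the covariate. The causes were not tested. No paired analysis was possible because the groups share no replicate numbers.

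Without 1 library, the summed level ran as follows. For complex I it was 4656 to 5409 CPM in female KO, 5445 to 5522 CPM in female WT, 4589 to 4827 CPM in male KO, 4553 to 4713 CPM in male WT. For complex II 521 to 547 CPM in female KO, 484 to 506 CPM in female WT, 612 to 635 CPM in male KO, 562 to 573 CPM in male WT. For complex III 1348 to 1510 CPM in female KO, 1438 to 1511 CPM in female WT, 1330 to 1376 CPM in male KO, 1246 to 1270 CPM in male WT. For complex IV 2458 to 2854 CPM in female KO, 3092 to 3293 CPM in female WT, 2322 to 2469 CPM in male KO, 2285 to 2368 CPM in male WT. For complex V 2946 to 3240 CPM in female KO, 3096 to 3206 CPM in female WT, 2895 to 2998 CPM in male KO, 2834 to 2883 CPM in male WT.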
